A study of Mus musculus with 3 samples.

Results

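Voltage-gated sodium and calcium channels were described as 36 genes of the 16610 in the table. They were chosen by symbol alone, as the Scn genes that end in a or b and the Cacna, Cacnb, Cacng and Cacna2d genes. By role they comprised 8 sodium channel alpha subunits, 4 sodium channel beta subunits, 9 calcium channel alpha1 subunits, 4 calcium channel beta subunits, 4 alpha2-delta subunits and 7 gamma subunits.

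Transcripts bound to tagged ribosomes (RiboTag, in which an epitope-tagged ribosomal protein is precipitated with the RNA it is translating) were sequenced from the middle section of mouse brain hemispheres. The MCAO left library came from the left hemisphere of animals whose middle cerebral artery had been occluded for 1 h, as a model of stroke, and that were killed after 3 days. The MCAO right library came from the opposite, right hemisphere of animals occluded for 1 h, also at 3 days. The control right library came from the right hemisphere of animals without MCAO, and its label also gives 3 days. Each library pooled 3 animals, so there was 1 library per group and no difference has a replicate check. The labels give neither strain, age nor the driver of the tagged protein, and they give no left hemisphere without MCAO, so side and occlusion cannot be told apart in the MCAO left library. The series title speaks of astrocytes. The 12 astrocyte markers summed to 351292, 395899 and 405048 normalised counts in the MCAO left, MCAO right and control right libraries, and the 14 general neuron markers summed to 273608, 279598 and 298631. Neuronal transcripts were therefore present in all 3 libraries.

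Sodium channels open when the membrane depolarises and carry the upstroke of the action potential. Their alpha subunit forms the pore, and their beta subunits, proteins with an immunoglobulin-like outer domain, adjust gating and surface expression. In calcium channels the alpha1 subunit forms the pore, the cytoplasmic beta subunit and the largely extracellular alpha2-delta subunit bring it to the membrane, and the calcium that enters triggers transmitter release and signals to the nucleus. Most gamma subunit genes of the brain encode proteins that traffic and gate AMPA-type glutamate receptors. Both channel classes are best known from neurons, and several members are also made by glia.

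The recovered depth was 25930258 reads in the MCAO left library, 33886604 in the MCAO right library and 31833456 in the control right library. Levels are given as normalised counts, that is, reads divided by a size factor per library. They were not compared between genes, since no transcript lengths were used here. Differences are on the log2(value + 5) scale, and ratios are of the normalised counts themselves with a 95% interval for counting error only. Of the 36 members, 34 averaged 20 or more normalised counts in the libraries and were counted. Scn10a and Scn11a, sodium channel genes of peripheral sensory neurons, did not reach it.

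The promoters of 2 members are printed first, because the largest difference of all members fell on Scn4b and a much smaller one on its neighbour Scn2b, which lies 8.55 kb away on chromosome 9. Each sequence runs from 250 bases before to 50 bases after the RefSeq gene start in GRCm38.p6, on the plus strand, at chr9:45138374-45138673 for Scn4b and chr9:45117626-45117925 for Scn2b. Capitals mark CG dinucleotides.
Scn4b: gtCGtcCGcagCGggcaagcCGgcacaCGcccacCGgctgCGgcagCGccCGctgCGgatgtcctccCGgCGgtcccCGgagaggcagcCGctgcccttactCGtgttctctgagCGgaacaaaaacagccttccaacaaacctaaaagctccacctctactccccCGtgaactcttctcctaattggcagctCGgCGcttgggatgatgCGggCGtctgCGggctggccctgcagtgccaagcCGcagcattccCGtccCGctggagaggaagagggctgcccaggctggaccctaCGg
Scn2b: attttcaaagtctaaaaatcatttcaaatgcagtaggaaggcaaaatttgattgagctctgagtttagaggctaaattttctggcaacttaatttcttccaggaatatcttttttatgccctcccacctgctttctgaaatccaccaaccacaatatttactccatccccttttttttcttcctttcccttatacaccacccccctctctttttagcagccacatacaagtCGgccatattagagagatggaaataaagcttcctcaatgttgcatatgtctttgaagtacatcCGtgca

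The Scn4b window held 26 CG dinucleotides, a number that 16.9% of all 32851 promoter windows reach. The Scn2b window held 2, a number that 85.9% reach. The G and C content was 66.3% in the Scn4b window and 38.3% in the Scn2b window. Neither window held, on either strand, the TATA box (TATAAA), which stood in 13.6% of all windows, or the core of the GC box (GGGCGG), which stood in 35.7%. Of the 36 members, 27 had an entry, with 37 windows between them. The GC box letters stood in 15 of these, or 40.5%.

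Channel genes were lower in the MCAO left library than in the control right library almost throughout, by a small amount. Of the 34 members, 33 were lower, where 50.3% of all 14906 genes were, and the median difference was -0.34 against 0.00 over all genes. Centred on the 14 general neuron markers, the median was -0.19, with 31 of 34 lower, and that of all genes was 0.15. At 1.5-fold 6 members were lower, or 17.6%, and 5.18% of all genes were. At 2-fold 1 member was lower, Scn4b, and 1.25% of all genes were. No member was 1.5-fold higher, a size that 9.16% of all genes reached. The 14 general neuron markers were lower by a median of 0.15 in the same comparison, with 11 of 14 lower, and their part in the channel difference was not tested. In pulled-down RNA of whole tissue, fewer cells of a type and less RNA per cell cannot be told apart.

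The MCAO right library showed most of the same shortfall. Of the 34 members, 32 were lower than in the control right library, where 50.6% of all genes were, with a median difference of -0.27 against 0.00 over all genes. At 1.5-fold 2 members were lower, Cacna1e and Cacnb4, and 2.25% of all genes were. No member was 2-fold higher, a size that 5.17% of all genes reached in this library. Between the hemispheres of the occluded animals, 22 of 34 members were lower in the MCAO left library, where 50.3% of all genes were, with a median of -0.14. At 2-fold only Scn4b was lower, against 4.96% of all genes, and at 1.5-fold Scn7a joined it, against 7.71%. These shares of all genes, and the 5.17% above, include male germ cell genes that were high only in the MCAO right library. The 13 male germ cell markers summed to 10309 normalised counts in MCAO right, against 58.3 in MCAO left and 60.2 in the control. The 12 of them past the filter passed it through the MCAO right library, so a count of those past 2-fold would be fixed by the filter. How far such genes raised the shares was not tested. Both comparisons with the control share that 1 library, so a property of the control pool and one of both MCAO hemispheres cannot be told apart.

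Markers of cell types differed among themselves in the same comparisons. The 10 cortical excitatory neuron markers summed to 128891 normalised counts in the MCAO left library, 128280 in the MCAO right library and 156845 in the control right library, and none was listed at the minimum. They had medians of -0.30 and -0.31 in the MCAO left and MCAO right libraries relative to the control, and 0.01 between the MCAO hemispheres. In each comparison with the control 9 of 10 were lower, where 50.3% and 50.6% of all genes were. The 12 microglia and macrophage markers summed to 19197, 6489 and 6329 in the same order of libraries. Relative to the control, 9 of 12 had 2-fold higher values in MCAO left, a size that 4.12% of all genes reached. The 10 GABAergic interneuron markers had medians of -0.07 and 0.02 in the MCAO left and MCAO right libraries relative to the control. Of these 10, 5 were lower each time, and the median between the MCAO hemispheres was -0.09. The part of these lists in the channel differences was not tested.

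**Figure D1:**
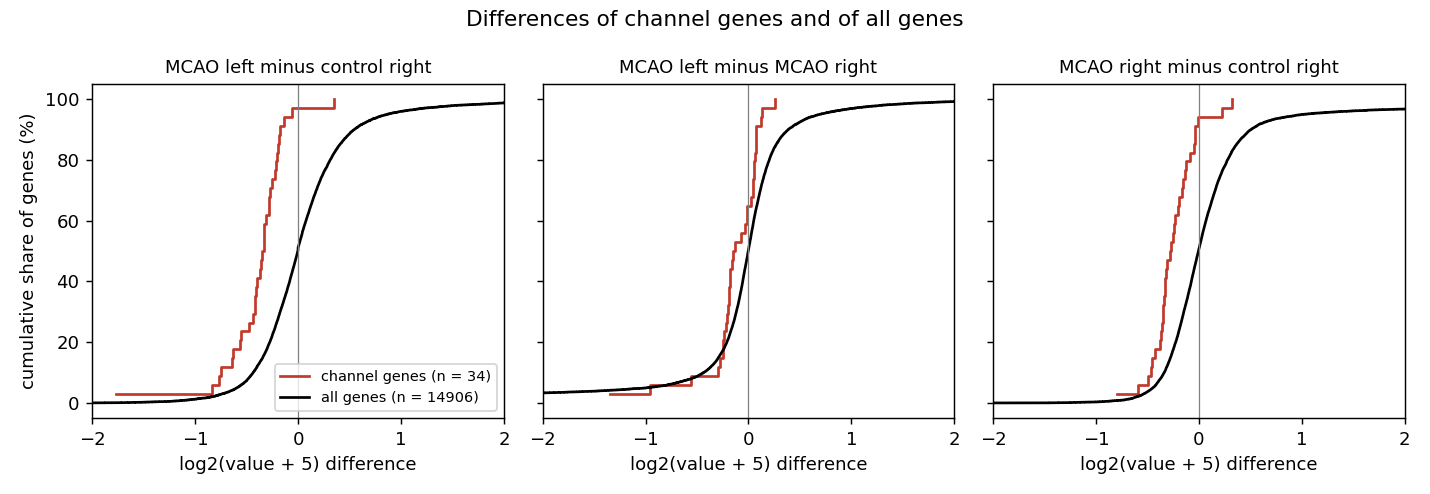
Cumulative share of genes (y axis, %) against the log2(value + 5) difference (x axis) for the 34 channel genes past the filter (red) and all 14906 genes (black), in 3 comparisons. The red curve lies left of the black one in both comparisons with the control right library, with medians of -0.34 and -0.27, and lies closer to it between the MCAO hemispheres, with a median of -0.14.

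Sodium channel alpha subunits that dominate the adult brain were lower in both MCAO libraries alike. Scn8a, the main pore of axon initial segments and nodes of Ranvier (chromosome 15), had 6662 normalised counts in the MCAO left library, 6727 in the MCAO right library and 8519.97 in the control right library. The MCAO left value stood at 0.782-fold the control (0.756 to 0.809), and at 0.99-fold the MCAO right value (0.957 to 1.03). Scn1a, the pore of fast-spiking inhibitory neurons (chromosome 2), had 4113, 3982 and 5458 in the same order, or 0.754-fold the control (0.722 to 0.786) and, against MCAO right, 1.03-fold (0.988 to 1.08). The MCAO right value of Scn1a was 0.73-fold the control (0.701 to 0.759). The MCAO libraries lay together and below the control for both genes. The gene listed as Scn2a1, an older symbol that the rule does not take in and that RefSeq gives as Scn2a, encodes the pore of excitatory axons and had 5238, 5327 and 7127. Its values had the same order of libraries as those of Scn8a.

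Scn3a, the alpha subunit gene best known from the embryonic and early postnatal brain (chromosome 2), had 555 normalised counts in the MCAO left library, 685 in the MCAO right library and 872 in the control right library. The libraries differed stepwise, with MCAO left lowest, at 0.637-fold the control (0.569 to 0.713) and, against MCAO right, 0.811-fold (0.721 to 0.91). Scn9a, a gene of sensory and sympathetic neurons, had 120.0, 114 and 138. It was 0.872-fold the control in the MCAO left library (0.67 to 1.13), and all 3 of its intervals included 1. Scn7a encodes a channel that senses sodium concentration and is known from glia of the circumventricular organs. It had 28.2 normalised counts in the MCAO left library, 59.4 in the MCAO right library and 46.5 in the control right library, from 24, 67 and 48 reads. It was 0.475-fold the MCAO right value (0.285 to 0.767), while against the control its interval, 0.356 to 1.01, included 1. Scn10a had 14.1, 15.1 and 17.4 and Scn11a had 8.23, 9.76 and 10.7, too few for their differences to be detectable at this depth.

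The alpha members with the most reads held similar shares in the 3 libraries. The gene listed as Scn2a1 is not a member and is left out of these shares. It had 4453, 6004 and 7359 reads in the MCAO left, MCAO right and control right libraries, more than Scn1a in each. Scn8a held 56.8% (55.8 to 57.7), 56.7% (55.9 to 57.5) and 55.3% (54.5 to 56.1) of the reads of the 8 alpha members in the MCAO left, MCAO right and control right libraries. Scn1a held 35.0% (34.1 to 36.0), 33.6% (32.8 to 34.4) and 35.4% (34.7 to 36.2). Scn3a held 4.73% (4.32 to 5.16) in the MCAO left library, below 5.77% (5.38 to 6.18) and 5.66% (5.3 to 6.03) in the right hemispheres. These shares do not depend on the size factors, and they count reads, of which a longer transcript yields more.

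Among the sodium channel beta subunits, Scn4b stood apart. The gene lies on chromosome 9 from 45138624 to 45154155, encodes a subunit that is disulphide-linked to the alpha subunit, and is abundant in striatal medium spiny neurons. It had 2894 normalised counts in the MCAO left library, 7333 in the MCAO right library and 9865 in the control right library. The MCAO left value was 3.41-fold lower than the control (3.26 to 3.56) and 2.53-fold lower than the MCAO right value (2.42 to 2.65). The MCAO right value was 0.743-fold the control (0.722 to 0.765). By the difference from the control, Scn4b ranked 18 from the lowest among the 14906 genes.

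Striatal markers were lower in the same library. The 12 medium spiny neuron markers summed to 23371 normalised counts in the MCAO left library, 48983 in the MCAO right library and 53140 in the control right library, and none was listed at the minimum. Their median difference from the control was -1.39, and from the MCAO right library it was -1.20. Against the control 9 of 12 were at least 2-fold lower, where 1.25% of all genes were. Scn4b had differences of -1.77 and -1.34 in these comparisons. Pde10a, a phosphodiesterase gene of these neurons, had -1.82 and -1.58. The part of striatal neurons in the lower Scn4b level was not tested.

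Scn2b, the other disulphide-linked beta subunit and the neighbour of Scn4b, had 7815 normalised counts in the MCAO left library, 8539 in the MCAO right library and 9818 in the control right library. It was 0.796-fold the control (0.772 to 0.821), a difference close to that of Scn8a. Scn3b, whose subunit binds without a covalent link, had 3384, 4108 and 4125. Its right hemispheres lay together, at a ratio of 0.996 (0.955 to 1.04), and its MCAO left value was 0.82-fold the control (0.782 to 0.86) and, against MCAO right, 0.824-fold (0.786 to 0.863).

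The makeup of the beta subunit reads therefore differed between libraries. Scn4b held 10.7% (10.3 to 11.1) of the reads of the 4 genes in the MCAO left library, 22.7% (22.3 to 23.2) in the MCAO right library and 26.5% (26.1 to 27.0) in the control right library. Scn2b held 29.0% (28.4 to 29.6), 26.5% (26.0 to 26.9) and 26.4% (26.0 to 26.8), and Scn3b held 12.5% (12.1 to 13.0), 12.7% (12.4 to 13.1) and 11.1% (10.8 to 11.4). These shares move with that of Scn4b. With Scn4b set aside, Scn2b held 32.5%, 34.3% and 35.9% of the remaining reads and was lowest in the MCAO left library, and Scn3b held 14.1%, 16.5% and 15.1%.

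**Figure D2:**
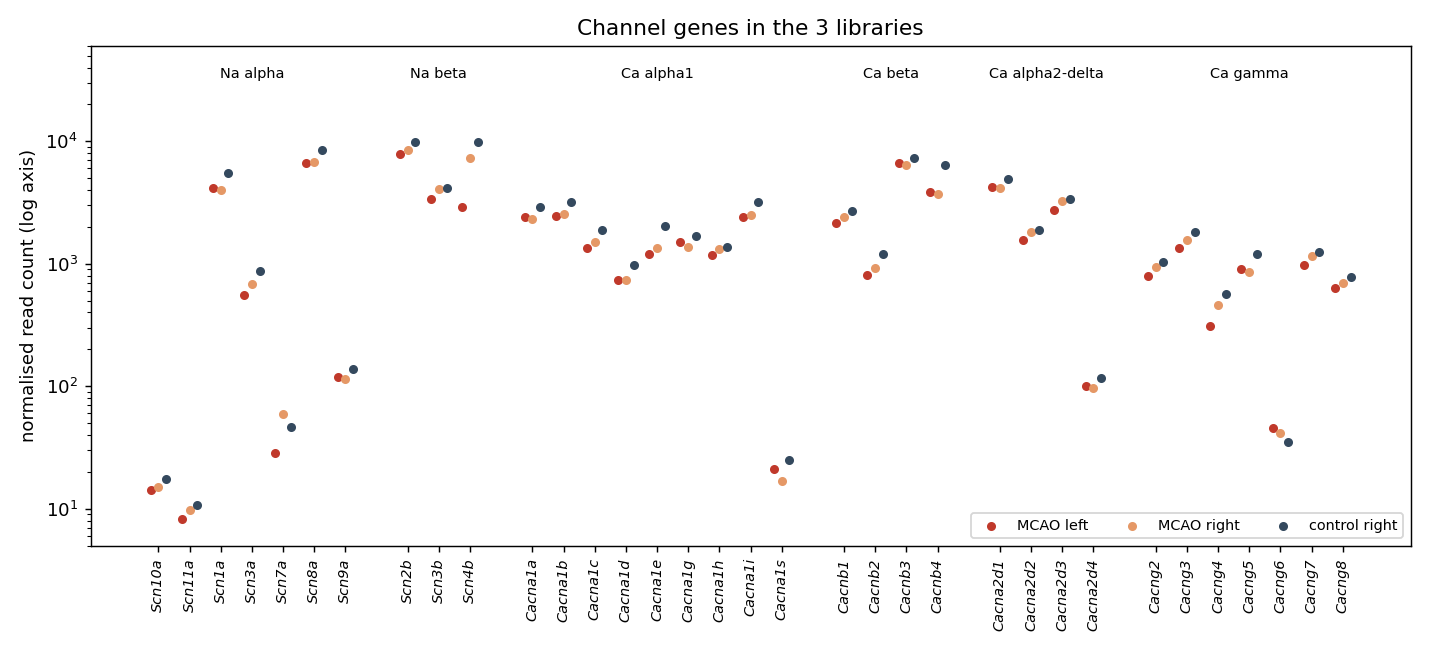
Normalised read count (y axis, log scale) of 34 of the 36 channel genes (x axis, by subfamily) in the MCAO left, MCAO right and control right libraries, 1 point per library. Scn4b shows the widest gap, with 2894 in the MCAO left library against 9865 in the control right library, and Cacnb4 has both MCAO libraries together below the control.

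Calcium channel alpha1 subunits had median differences from the control right library of -0.36 in the MCAO left library and -0.33 in the MCAO right library, and of -0.03 between the MCAO hemispheres. All 9 had a negative difference from the control in both MCAO libraries, where 50.3% and 50.6% of all genes did. The counting intervals of Cacna1s included 1 in both, and that of Cacna1h did in the MCAO right library, where its sign turned when values were scaled to reads per library total or centred on the neuron markers. Cacna1e encodes the R-type channel of dendrites and presynaptic terminals and lies on chromosome 1. It had 1194 normalised counts in the MCAO left library, 1350.4 in the MCAO right library and 2042 in the control right library. This was 0.585-fold the control in the MCAO left library (0.542 to 0.631) and 0.661-fold in the MCAO right library (0.619 to 0.707). The MCAO left value was also below the MCAO right value, at 0.884-fold (0.816 to 0.958).

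Cacna1a and Cacna1b were lower than the control by less than Cacna1e was. Cacna1a, the pore of the P/Q-type channel that drives release at most central synapses, had 2397 normalised counts in the MCAO left library, 2308 in the MCAO right library and 2896 in the control right library. Cacna1b, the pore of the N-type channel, had 2473, 2532 and 3185. In the MCAO left library Cacna1a stood at 0.828-fold the control (0.782 to 0.876) and Cacna1b at 0.776-fold (0.735 to 0.82), and both intervals against the MCAO right library included 1. The L-type pore genes Cacna1c and Cacna1d, whose channels couple activity to transcription, had 1354, 1516 and 1891 and 734, 743 and 969 in the same order. For Cacna1c the MCAO left value lay below both right hemispheres, at 0.893-fold the MCAO right value (0.828 to 0.963). For Cacna1d the MCAO libraries lay together, at 0.988-fold (0.89 to 1.1).

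The T-type pore genes, whose channels open at low voltage and support burst firing in the thalamus, differed among themselves. Cacna1i had 2389 normalised counts in the MCAO left library, 2510.05 in the MCAO right library and 3203 in the control right library, and was 0.746-fold the control (0.705 to 0.789). Cacna1g had 1497, 1365 and 1696. Its MCAO left value was 0.883-fold the control (0.821 to 0.95) and, against MCAO right, 1.1-fold (1.02 to 1.18). Cacna1h had 1168, 1328 and 1362, so that its right hemispheres lay together, at 0.975-fold (0.906 to 1.05), and the MCAO left value was 0.858-fold the control (0.79 to 0.931). The 8 thalamic markers differed by a median of -0.14 from the control and of 0.01 from MCAO right, and their part in these values was not tested. Cacna1s, the pore gene of skeletal muscle, had 21.2, 16.9 and 25.2, from 18, 19 and 26 reads. Its MCAO left value was 1.26-fold the MCAO right value (0.622 to 2.53), its MCAO right value was 0.669-fold the control (0.35 to 1.26), and its differences were not detectable at this depth.

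The 4 calcium channel beta subunits differed from the control in the MCAO left library by -0.75 (Cacnb4), -0.56 (Cacnb2), -0.33 (Cacnb1) and -0.13 (Cacnb3). Cacnb4 encodes a beta subunit of cerebellar, thalamic and cortical neurons whose loss causes ataxia and seizures in the lethargic mouse, and lies on chromosome 2 from 52428320 to 52676609. It had 3825 normalised counts in the MCAO left library, 3715 in the MCAO right library and 6433 in the control right library. This was 0.595-fold the control in the MCAO left library (0.57 to 0.62) and 0.577-fold in the MCAO right library (0.555 to 0.6). The hemispheres of the occluded animals differed by less than counting error, at a ratio of 1.03 (0.983 to 1.08). Among all 14906 genes Cacnb4 ranked 123 from the lowest in the comparison of the right hemispheres.

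Cacnb2, the main beta subunit gene of the heart, had 815 normalised counts in the MCAO left library, 931 in the MCAO right library and 1205 in the control right library, which was 0.677-fold the control (0.616 to 0.743). Cacnb3, a neuronal beta subunit gene, had 6612, 6352 and 7248, and was 0.912-fold the control (0.881 to 0.944). Cacnb1, whose protein serves skeletal muscle and brain channels, had 2137, 2415 and 2684, and was 0.796-fold the control (0.75 to 0.845). In the share of beta subunit reads, Cacnb4 held 28.6% (27.7 to 29.4) in the MCAO left library and 27.7% (27.0 to 28.4) in the MCAO right library, against 36.6% (35.9 to 37.3) in the control right library. Cacnb3 held 49.4% (48.5 to 50.3), 47.4% (46.6 to 48.2) and 41.3% (40.5 to 42.0).

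The alpha2-delta genes showed the smallest median difference from the control of the 6 subfamilies in the MCAO left library, at -0.23. Cacna2d1, a binding target of gabapentin, had 4216 normalised counts in the MCAO left library, 4149.7 in the MCAO right library and 4899.7 in the control right library, and was 0.86-fold the control (0.824 to 0.898). Cacna2d2, the other gabapentin target, had 1568, 1824 and 1869, and Cacna2d3 had 2755, 3262 and 3363. For both of these the right hemispheres lay together, with Cacna2d2 at 0.976-fold (0.917 to 1.04), and the MCAO left values were 0.86-fold (0.802 to 0.921) and 0.844-fold (0.801 to 0.89) of the MCAO right values. Cacna2d4, known from the retina, had 101, 95.8 and 116. Its MCAO left value was 0.87-fold the control (0.652 to 1.16) and, against MCAO right, 1.06-fold (0.786 to 1.41), and all 3 of its intervals included 1.

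**Figure D3:**
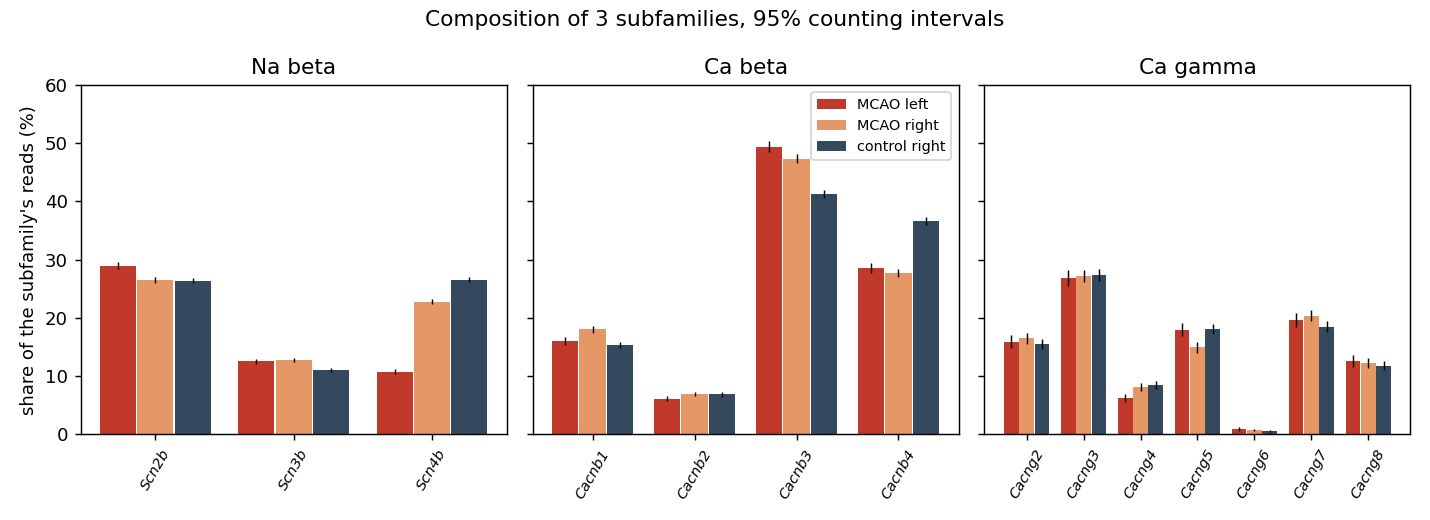
Share of the subfamily's reads (y axis, %) held by 3 of the 4 sodium channel beta genes and by each calcium channel beta and gamma gene in the 3 libraries, with 95% counting intervals. Scn4b is at 10.7% in the MCAO left library against 26.5% in the control right library, and Cacnb4 is at 28.6% and 27.7% in the MCAO libraries against 36.6%.

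Gamma subunit genes were lower in 6 of 7 cases in the MCAO left library against the control, where 50.3% of all genes were. Cacng4 encodes a trafficking protein of AMPA receptors that is also known from oligodendrocyte precursors. It had 313 normalised counts in the MCAO left library, 463 in the MCAO right library and 564 in the control right library. The libraries differed stepwise, with MCAO left lowest, at 0.555-fold the control (0.478 to 0.643) and, against MCAO right, 0.676-fold (0.581 to 0.785). Of the 10 oligodendrocyte precursor markers 6 had higher and 4 had lower values in the MCAO left than in the control right library. Of all genes, 48.8% were higher in that comparison. The marker differences ran from -0.73 to 1.20, with a median of 0.06. Against MCAO right 9 of the 10 markers had higher values, where 49.7% of all genes did, and the marker median was 0.27. Their summed level was 14742 normalised counts in the MCAO left library, 11433 in the MCAO right library and 10842 in the control right library, none was listed at the minimum, and their part in the Cacng4 values was not tested. The neighbouring gene Cacng5, at a distance of 79.9 kb on chromosome 11, encodes a related protein. It had 901, 854 and 1207, with the MCAO libraries together, at 1.06-fold (0.959 to 1.16), and below the control, at 0.747-fold in MCAO left (0.681 to 0.818) and 0.707-fold in MCAO right (0.65 to 0.77).

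The other AMPA receptor partners lay close to each other. Cacng2, or stargazin, had 799 normalised counts in the MCAO left library, 942 in the MCAO right library and 1032 in the control right library, and was 0.774-fold the control (0.702 to 0.853). Cacng3, its close relative in the forebrain, had 1347, 1554 and 1825. Cacng8, a hippocampal relative, had 630.5, 701 and 784, and Cacng7 had 982, 1166 and 1235. The MCAO left library was the lowest for these 4 genes, at 0.738-fold to 0.804-fold the control. Cacng6, a relative of the skeletal muscle gamma subunit, was the only member above the control in the MCAO left library, with 45.9, 41.7 and 34.9. The ratio was 1.32 (0.815 to 2.13), against MCAO right it was 1.1 (0.701 to 1.72), and between the right hemispheres it was 1.2 (0.758 to 1.9), so every interval included 1.

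**Figure D4:**
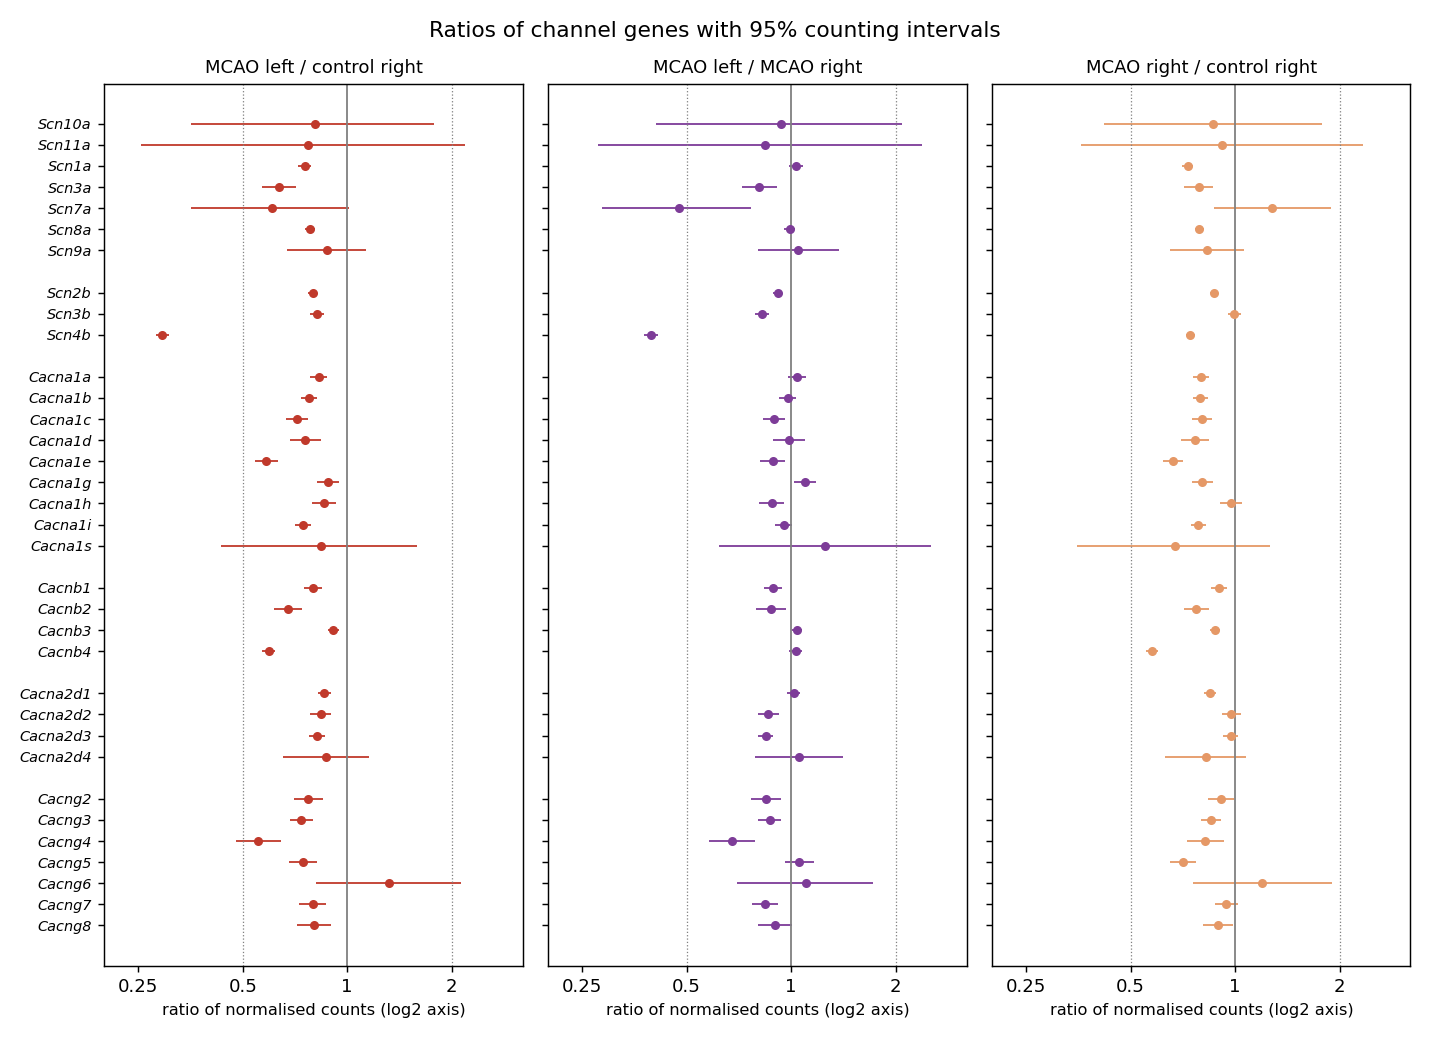
Ratios of normalised counts (x axis, log2 scale, dotted lines at 0.5 and 2) with 95% counting intervals for 34 of the 36 channel genes (y axis, by subfamily) in 3 comparisons. Scn4b is the only gene left of the dotted line with its whole interval in the panels that hold the MCAO left library, at 0.293 and 0.395, and most other genes lie between 0.55 and 1 against the control.

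Sorted by their counting intervals, most members followed 1 of 3 patterns. In 11 of the 34 both MCAO libraries were below the control and the interval between them included 1, a pattern that 11.4% of all genes showed. Among them were Scn1a, Scn8a, Cacna1a, Cacna1b, Cacna1d, Cacna1i, Cacnb4, Cacna2d1, Cacng5 and Cacng8. In 10 the MCAO left library was below the MCAO right library and that below the control, against 6.84% of all genes, namely Scn2b, Scn3a, Scn4b, Cacna1c, Cacna1e, Cacnb1, Cacnb2, Cacng2, Cacng3 and Cacng4. In 5 the interval between the right hemispheres included 1 and the MCAO left library was lower than both, against 5.43% of all genes. These were Scn3b, Cacna1h, Cacna2d2, Cacna2d3 and Cacng7. For 3 members, Cacna1g and Cacnb3 among them, both MCAO libraries were below the control and the MCAO left library was above the MCAO right one. This pattern was shown by 2.58% of all genes. Of the 5 remaining members, Scn7a was below the MCAO right library alone, and the intervals of Scn9a, Cacna1s, Cacna2d4 and Cacng6 included 1 in all 3 comparisons. The intervals leave out the variation between animals, and in the MCAO left library against the control 29.9% of all genes had a whole interval below 1, as did 29 of the 34 members.

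Several members lie in genomic clusters. For the members Scn3a, Scn1a, Scn9a and Scn7a of a cluster on chromosome 2, the MCAO left differences from the control were -0.65, -0.41, -0.19 and -0.63. The counting intervals of Scn9a and Scn7a included 1. The gene listed as Scn2a1, not a member, lies between Scn3a and Scn1a and had -0.44. For Cacng7, Cacng8 and Cacng6 on chromosome 7 the differences were -0.33, -0.31 and 0.35, with overlapping intervals. Scn2b and Scn4b, with 8.55 kb between them, had -0.33 and -1.77, and their intervals lay apart. Many members span long stretches of the genome, and genes of 100 kb or more had a median of -0.16 over 2242 genes in this comparison, where genes under 20 kb had 0.08. The 18 members of 100 kb or more that passed the filter had a median of -0.38, and the 16 shorter ones had -0.32. The part of gene length in the difference was not tested.

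Genes that work with these channels were taken from lists. Of all genes, 50.3% were lower in the MCAO left library than in the control right library. All 4 fibroblast growth factor homologous factors, which bind the tail of sodium channel alpha subunits, were lower in the MCAO left library, at a median of -0.46 from the control. Fgf14 had 479 normalised counts in the MCAO left library, 733 in the MCAO right library and 884 in the control right library. The scaffold of the axon initial segment and node had a median of 0.03, with 6 of 14 genes lower. Its main ankyrin gene, Ank3, had 2081, 1806 and 2159, while Sptan1, encoding alpha-II spectrin, had 15248, 11643 and 8939. The sodium leak channel complex, which sets resting excitability, was lower in 4 of 4 genes, with a median of -0.27.

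Presynaptic tethers that hold calcium channels at release sites were lower than in the control in 12 of 12 genes, where 50.3% of all genes were. Their median difference was -0.32 from the control and -0.11 from MCAO right. Rims4 was past 2-fold, with 159 normalised counts in the MCAO left library, 225 in the MCAO right library and 358 in the control right library. Rims3 had 347, 496 and 692. The small GTPases, Stac adaptors and calcium sensors of calcium channels had a median of -0.11, with 6 of 10 lower, among them Rem2, a GTPase that restrains calcium channels, at 219, 330.1 and 399. AMPA receptor subunits and their other partners had a median of -0.12, with 9 of 12 lower, and Gria2, the subunit gene that sets calcium permeability, had 9861, 10066 and 11021.

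The sperm cation channel genes behaved otherwise. Catsper1, a pore subunit of the calcium channel of sperm tails, was listed at the minimum of 1 in the MCAO left library, had 63.9 normalised counts in the MCAO right library and was listed at 1 in the control right library. Catsperg1 had 11.8, 153 and 4.84. Male germ cell markers were high in the same library, where 13 of them summed to 10309 normalised counts, against 58.3 in the MCAO left library and 60.2 in the control right library. None of the 36 voltage-gated sodium and calcium channel genes had such a profile, and the highest ratio of a member in the MCAO right library to the control was that of Scn7a, 1.28 (0.87 to 1.89).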

How the data were processed

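RNA from 3 RiboTag pools was measured in 1 library per group. The deposited values are a signal, namely gene read counts that the authors divided by a size factor per library, with values below 1 listed as 1. Per the submitters' processing notes, HISAT2 2.0.11, CASAVA 1.8, R 3.3.1, DESeq2 (no version), Partek 6.6 and mm10 were used, without stated roles. Whether counting used strand is not given in the sources used here, and overlapping genes may share reads. The labels mention 2 technical replicates, which are not separate columns.

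From the table, 1 read was worth 1.18 normalised counts in the MCAO left library, 0.887 in the MCAO right library and 0.969 in the control right library, and 99.9% of values above 1 were whole reads within 0.1. With 1 library per group no p-value was computed. Ratio and share intervals are exact Clopper-Pearson intervals at 95% from these reads, taking 1 read for a value listed at 1 in a ratio. They hold counting error alone, and PCR copies were not told apart from separate molecules. A gene was counted at 2-fold or 1.5-fold on the log2(value + 5) scale among genes with a mean of at least 20. RefSeq for GRCm38.p6, the assembly called mm10, gave coordinates for 16553 of the 16610 symbols. The procedure was tested on simulated reads (Python 3.11.15, numpy 2.4.6, scipy 1.17.1).

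Some members are not reported here. The others were named, with ratios for the 5 highest and 5 lowest of each comparison among others. Up to 4 genes per partner list were named, not always those with the largest difference. The rule's choice of the highest level per length could not be applied without lengths. Members and lists were chosen with earlier results of these data known.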

Additional observations from a re-analysis of the deposited data

How the results depend on the processing

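The median differences of the channel genes stayed negative in all 3 comparisons under pseudocounts of 1 and 20, no filter or a filter of 100, scaling to the library total and centring on 14 neuron markers. Centring on the neuron markers, which moved all genes by 0.15, brought the median of MCAO left against control right to -0.19 from -0.34, with 31 of 34 members lower and 2 changing sign, Cacnb3 among them. In MCAO right against control right, both rescalings turned the sign of Scn3b, Cacna1h and Cacna2d2, whose differences were at most 0.04 in size, and left 29 of 34 members lower. At 1.5-fold in place of 2-fold, the lower members numbered 6 in MCAO left against control right, 2 in MCAO left against MCAO right and 2 in MCAO right against control right. With a pseudocount of 1, 2 members were 2-fold lower in MCAO left against MCAO right, since Scn7a then passed. Scn4b was the only member 2-fold lower in either comparison of MCAO left at the main settings, so leaving it out gave 0 by construction. Without Scn4b, a choice made after seeing the data, the medians of these comparisons were -0.33 and -0.13. Shares per coding length were not run, since no lengths were used here. No paired analysis was possible because each group has 1 library. With 1 library per group, variation between animals is unmeasured, and members with few reads (Scn7a, Scn10a, Scn11a, Cacna1s and Cacng6) have wide counting intervals.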
